A study of Mus musculus with 134 samples.

Results

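The p53 target genes examined here are 10 genes that the p53 protein, product of the tumor suppressor gene Trp53, is known to switch on: Mdm2, Ccng1, Eda2r, Bbc3, Bax, Trp53inp1, Phlda3, Cdkn1a, Sesn2 and Zmat3. They were named by symbol, without use of their levels, and were measured where the array had a probe set that carries that symbol alone. This held for 8 of the 10 genes, out of 19938 genes measured in all. The single Cdkn1a probe set carries 2 symbols, and the probe table used here pairs no probe set with Bax, so neither gene has a value here. Levels were measured in 134 mammary tumors with the Affymetrix Mouse Gene 1.0 ST array, with 1 tumor and 1 array per mouse. All tumors belong to 1 group, the MOLF/Ei x PyMT backcross: female N2 mice, each with a different mixture of MOLF/EiJ and FVB/NJ alleles, that carried the polyoma middle T antigen (PyMT) under the mouse mammary tumor virus promoter, which is active mainly in mammary epithelium. The mice were untreated, tumors were taken as the animals neared a humane endpoint, and there was no control tissue, so all comparisons are among tumors. Ages are not given in the sources used here. Tumors are called by the number in their label.

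The p53 protein is held at a low level in unstressed cells by Mdm2, a ubiquitin ligase that marks it for degradation and whose own gene p53 switches on. DNA damage or oncogene signaling releases p53, which then binds pairs of a short half-site and raises the transcription of genes for cell cycle arrest, apoptosis, DNA repair and antioxidant defense. Oncogene signaling acts largely through p19Arf, a product of the Cdkn2a locus that binds Mdm2.

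Promoter sequence was taken from RefSeq (GRCm38.p6) for the measured genes in which a p53 half-site was found, Mdm2 and Ccng1, and for Eda2r, the gene that most of the others followed in these tumors. An entry was found for 6 of the 8 measured genes. Each line runs from 250 to 31 bases before the transcription start, 5′ to 3′ on the gene's strand. Capitals mark a match to the p53 half-site consensus, and in Ccng1 a pair of adjoining half-sites.
Mdm2: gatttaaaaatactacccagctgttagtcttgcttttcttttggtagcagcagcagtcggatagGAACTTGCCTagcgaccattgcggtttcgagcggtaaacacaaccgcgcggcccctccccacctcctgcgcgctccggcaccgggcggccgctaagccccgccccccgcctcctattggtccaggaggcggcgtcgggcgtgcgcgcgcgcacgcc
Ccng1: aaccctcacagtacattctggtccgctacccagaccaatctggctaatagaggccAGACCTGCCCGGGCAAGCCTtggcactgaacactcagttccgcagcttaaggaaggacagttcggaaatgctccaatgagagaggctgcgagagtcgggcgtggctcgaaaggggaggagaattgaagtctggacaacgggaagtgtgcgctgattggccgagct
Eda2r: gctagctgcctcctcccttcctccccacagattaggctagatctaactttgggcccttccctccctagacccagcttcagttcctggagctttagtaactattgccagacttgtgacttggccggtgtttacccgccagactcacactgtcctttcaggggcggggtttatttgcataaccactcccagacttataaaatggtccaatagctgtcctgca
These windows lie at chr10:117710789-117711008, chr11:40755317-40755536 and chrX:97377240-97377459, all on the minus strand. The Ccng1 pair starts 195 bases before the start site, has no spacer and departs from the consensus at 1 base. Mdm2 has a single half-site, which starts 186 bases before the start site. Eda2r has none in this window, nor have Phlda3, Sesn2 and Bbc3. Of 32851 mouse promoter windows of the same length, 6.33% hold a half-site without a mismatch and 0.828% a pair with at most 1 mismatch. The consensus reads the same on both strands. A match is a match of letters only, and the well known p53 response elements of Mdm2 lie in its first intron, outside this window.

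Arrays were comparable in signal, with medians between 6.30 and 6.54 on the log2 scale. A detection floor of 5.71 was set at the level under which the means of 95% of 1194 olfactory and vomeronasal receptor genes lay, and 69.0% of all genes had a mean above it. The luminal epithelial markers Epcam, Cdh1, Krt8 and Krt18 were above it in 134 of 134 tumors. Tumors 104 and 116 had the most similar profiles of all 8911 pairs (r = 0.785 across genes after centering and scaling each gene, against 0.692 for the next pair). More widely, arrays 109 to 120 resembled arrays 97 to 108 taken in the same order (mean r = 0.365 over 12 pairs, against 0.0648 for other pairings of these arrays), and the labels do not say why. Tumor 73 stood apart in cell content, with the highest endothelium, adipocyte, skeletal muscle and fibroblast scores of all tumors and the lowest luminal epithelium and cell cycle scores. Several results that rest on these arrays are also given without them. The labels run in 2 series of ascending mouse numbers, tumors 107 to 134 (n = 28) and tumors 1 to 106 (n = 106), and values within each are given as a technical check.

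Both genes of the p53 feedback loop were well above the detection floor in every tumor. Mdm2 ranged from 8.15 in tumor 113 to 9.41 in tumor 132, with a median of 8.67 and a mean of 8.69 ± 0.22 (SD, n = 134, log2 signal). Ccng1, which encodes cyclin G1, a partner of protein phosphatase 2A that acts on Mdm2, ranged from 10.35 in tumor 17 to 12.37 in tumor 73, with a median of 11.38. The middle 80% of tumors spanned 1.40-fold in Mdm2 and 1.59-fold in Ccng1. Ccng1 had a larger SD than 82.3% of all genes and Mdm2 than 64.2%. The highest Ccng1 value came from the tumor that stood apart in cell content.

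Of the genes tied to cell death, Eda2r was within the background of the array in most tumors and above it in a few. Eda2r encodes a receptor of the tumor necrosis factor family, XEDAR. Its level ranged from 4.62 in tumor 103 to 6.38 in tumor 116, with a median of 5.03, and it passed the detection floor in 7 of 134 tumors (116, 20, 19, 104, 133, 96 and 31). By level alone, its values under the floor cannot be told apart from the background of the receptor genes. Bbc3, which encodes the proapoptotic protein Puma, was also dim. It ranged from 5.59 to 6.38 with a median of 5.90, passed the floor in 126 of 134 tumors and had the smallest SD of the genes, 0.13. Phlda3, a repressor of Akt, had a few tumors far above the others. It ranged from 7.29 in tumor 126 to 10.12 in tumor 73, with tumor 61 next at 9.93 and a median of 7.99, so that the highest tumor exceeded the median 4.38-fold. Trp53inp1, a cofactor that promotes p53 phosphorylation and takes part in autophagy, was spread more evenly, from 8.93 in tumor 61 to 11.03 in tumor 37 with a median of 9.75.

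The remaining genes act in stress defense and RNA regulation. Sesn2 encodes sestrin 2, which restrains mTORC1 and is also switched on by the integrated stress response. It ranged from 6.02 in tumor 132 to 8.10 in tumor 116, with tumor 104 next at 7.75 and a median of 6.83. Both of its highest values thus came from the 2 arrays that resembled each other most. Zmat3, a zinc finger RNA-binding protein that controls splicing and RNA stability, ranged from 6.57 in tumor 113 to 8.65 in tumor 20, with tumor 92 next at 8.40 and a median of 7.14. The plot of levels by gene shows long upper tails in Phlda3, Eda2r, Zmat3 and Sesn2, the last through tumors 116 and 104, and a more even spread in Mdm2, Ccng1 and Trp53inp1. Since the tumors are bulk tissue, fewer cells of a type and less RNA per cell cannot be told apart.

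**Figure D1:**
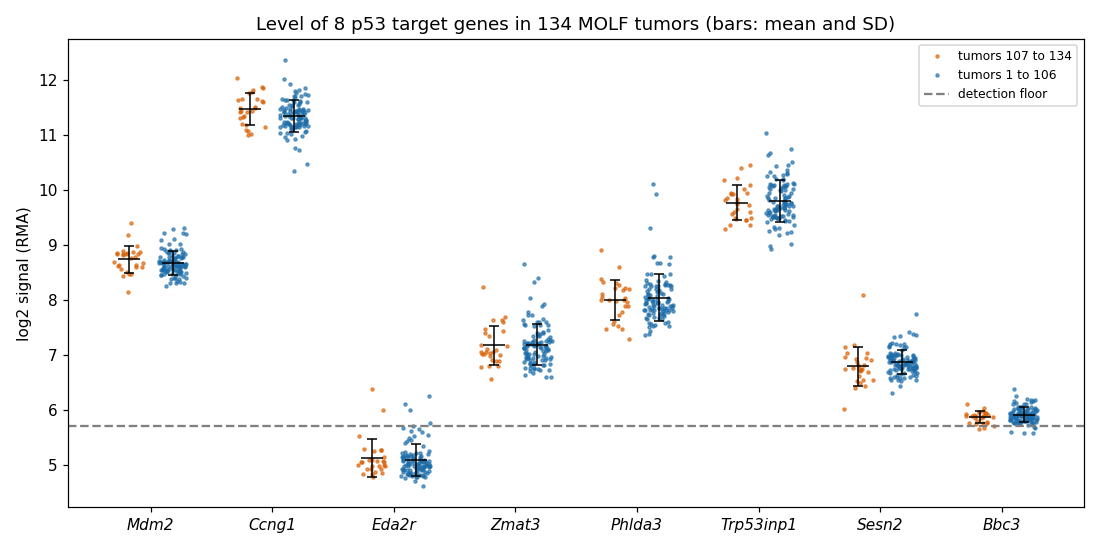
Log2 signal of 8 p53 target genes in each tumor (points), with tumors 107 to 134 left of tumors 1 to 106, the mean and SD as bars, and the detection floor of 5.71 as a dashed line. Eda2r lies under the floor in all but 7 tumors, and the groups overlap for every gene.

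The genes were moderately and mostly positively correlated across tumors. Of the 28 pairs, 24 had a positive correlation, and r ranged from -0.185 to 0.645 with a mean of 0.257. The mean was 0.293 within tumors 107 to 134 and 0.263 within tumors 1 to 106, and 25 pairs had the same sign in both. The strongest pair was Ccng1 and Eda2r (r = 0.645, rho = 0.732, each with permutation p = 1e-05, the smallest that 100000 permutations can give, 2-sided). It was 0.669 once the pair of tumors farthest from the Ccng1 median was left out, 0.613 within tumors 107 to 134 and 0.660 within tumors 1 to 106. Without the 4 tumors highest in Eda2r it was 0.651, so this pair was related also where Eda2r was mostly under the floor. Eda2r and Zmat3 followed with r = 0.602 (rho = 0.490, permutation p = 1e-05 for both), which was 0.548 without the 2 tumors farthest in Eda2r and 0.481 without the 4 tumors highest in Eda2r. The pair was at 0.532 within tumors 107 to 134 and 0.628 within tumors 1 to 106. Phlda3 and Eda2r had r = 0.492 (rho = 0.488, permutation p = 1e-05 for both), and 0.559 without the 2 tumors farthest in Phlda3, with 0.635 within tumors 107 to 134 and 0.465 within tumors 1 to 106. Tumors high in Eda2r therefore tended to be high in 3 other targets that lie on different chromosomes.

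Mdm2 followed only part of the genes. Its strongest partner was Ccng1 (r = 0.430, rho = 0.377, permutation p = 2e-05 for both), with r = 0.392 without the 2 tumors farthest in Mdm2, 0.733 within tumors 107 to 134 and 0.330 within tumors 1 to 106. With Bbc3 it had r = -0.185 (rho = -0.177, permutation p = 0.0321 and 0.0409), and with Sesn2 r = -0.138 (rho = -0.158, permutation p = 0.111 and 0.0674). The value with Sesn2 was -0.498 within tumors 107 to 134 and 0.0451 within tumors 1 to 106. Tumor 132, in the series from 107 to 134, was the highest of all tumors in Mdm2 and the lowest in Sesn2. Without the 2 tumors farthest in Mdm2, r with Sesn2 over the other tumors was -0.0953. How far tumor 132 makes the 2 series differ was not tested. Ccng1 and Bbc3 (r = -0.0495, rho = 0.0575, permutation p = 0.568 and 0.506) were not related beyond error. The 4 negative pairs were these 3 and Trp53inp1 with Phlda3 (r = -0.0208, rho = 0.176, permutation p = 0.811 and 0.0420). That pair was at 0.0668 without tumor 73, which was low in Trp53inp1 and highest in Phlda3. The correlation of Sesn2 with Eda2r (r = 0.384, permutation p = 2e-05) rested on few tumors: rho was 0.134 (permutation p = 0.122), and r was 0.196 without the 2 tumors farthest in Sesn2, 0.288 without arrays 109 to 120 and 0.115 without the 4 tumors highest in Eda2r.

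**Figure D2:**
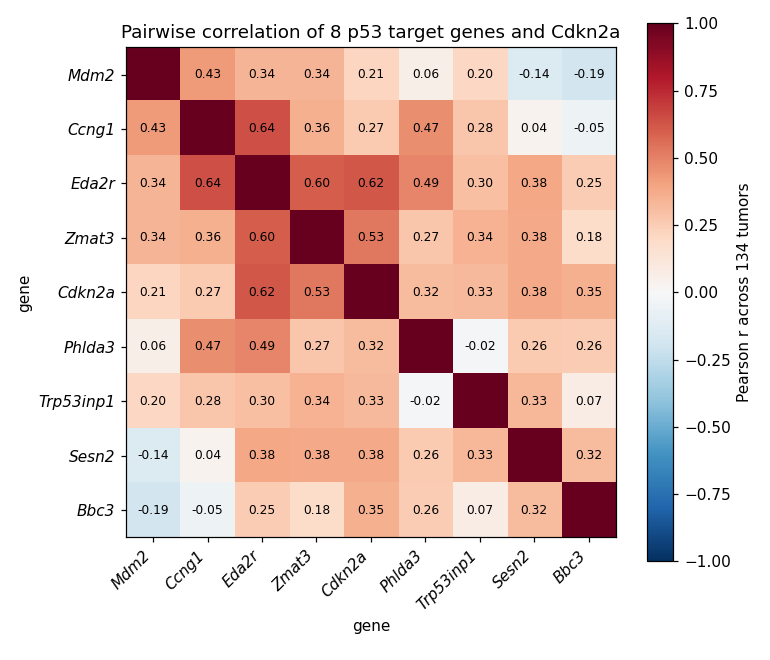
Pearson r across 134 tumors for each pair of the 8 p53 target genes and Cdkn2a (color scale from -1 to 1). Eda2r, Zmat3, Ccng1 and Cdkn2a hold the strongest pairs, up to 0.645, and the negative values are limited to 4 pairs between -0.185 and -0.0208.

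To set these pairs against the rest of the genome, the level of each gene in turn was used as a covariate in a limma fit across all other genes, with adjustment over all of them. Of 56 ordered pairs, 36 passed at an adjusted p under 0.05 with a positive coefficient and 0 with a negative one, whereas on average 8.92% of all genes passed with a positive coefficient in the same 8 fits. The count was 37 without tumor 73, 29 without arrays 109 to 120 and 27 without the 4 tumors highest in Eda2r. Over all genes, the 8 fits made 27166 calls in either direction in all tumors, and 24920, 23900 and 27398 in these settings. The contrast with the background was widest for Eda2r and Zmat3. With the level of Eda2r as covariate, 6 of 7 targets passed, all but Bbc3, against 0.747% of all genes (149 genes). With Zmat3, 5 of 7 passed, against 0.863% (172 genes). These counts were lower in fewer tumors: for Zmat3, 2 of 7 without arrays 109 to 120 and 3 of 7 in tumors 1 to 106 alone, and for Eda2r 4 of 7 in both. Over all genes in either direction, 106 and 116 were called there with Zmat3 (251 in all tumors), and 127 and 125 with Eda2r (222 in all tumors). In tumors 107 to 134 alone neither gene had a target called, and over all genes 0 were called with Zmat3 and 2 with Eda2r. After quantile normalization once more, 5 of 7 targets and 1017 genes were called with Eda2r in all tumors. Eda2r was higher by 0.19 ± 0.02 (log2, SE) per SD of Ccng1, with a limma adjusted p of 2.59e-13, and Zmat3 by 0.22 ± 0.03 per SD of Eda2r, with a limma adjusted p of 5.71e-11.

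The other genes had broader sets of correlated genes. With Ccng1 as covariate 5 of 7 targets passed against 8.80% of all genes, with Phlda3 5 of 7 against 12.3%, with Sesn2 5 of 7 against 16.6%, and with Trp53inp1 4 of 7 against 9.08%. Mdm2 had 3 of 7 against 9.47% and Bbc3 3 of 7 against 13.5%. Several of these counts changed with the processing or the tumors used. With Bbc3 there were 0 with ranks, 1 with other cell types as covariates and 1 without the 4 tumors highest in Eda2r. Of 19937 genes, 2506, 4882 and 4269 were called there in either direction. With Phlda3 there were 2 in tumors 1 to 106 alone and 2 without those 4 tumors, where 4556 and 4717 genes were called. With Sesn2 there were 3 without those 4 tumors and 3 without the 2 farthest tumors, where 5990 and 5807 genes were called. In tumors 107 to 134 alone the counts were 1 for Mdm2, 3 for Ccng1, 1 for Sesn2 and 0 for Trp53inp1, Bbc3 and Phlda3. Over all genes, 5375, 1572 and 4722 were called there with Mdm2, Ccng1 and Sesn2, and 5, 0 and 30 with Trp53inp1, Bbc3 and Phlda3. The counts of 1 with Mdm2, Sesn2 and Bbc3 and of 2 with Phlda3 are near or under these shares of all genes. Levels of Sesn2 and Bbc3 moved with a large share of the genome, and a positive link with them sets a target less apart.

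Of the regulators of p53, Cdkn2a and Mdm4 were set against the targets, and Cdkn2a was called with more of them. Its locus encodes p16Ink4a and p19Arf, and which of these transcripts the probe set reads is not given in the sources used here. Cdkn2a ranged from 6.17 in tumor 126 to 7.21 in tumor 20, with tumor 116 next at 7.19 and a median of 6.56. With its level as covariate, 6 of 8 targets passed the limma test with a positive coefficient, against 1.35% of all genes. The background changed with the processing: 412 genes were called in either direction, 1524 with ranks and 914 after quantile normalization once more. In each of these, 6 of 8 targets were called. Without the 4 tumors highest in Eda2r, 4 of 8 targets and 1128 genes were called. Eda2r was higher by 0.19 ± 0.02 (log2, SE) per SD of Cdkn2a, with a limma adjusted p of 1.00e-11, and Zmat3 by 0.20 ± 0.03 with a limma adjusted p of 1.48e-07. Sesn2, Bbc3, Trp53inp1 and Phlda3 passed with smaller coefficients, between 0.05 and 0.13, while Ccng1 (limma adjusted p = 0.0641) and Mdm2 (limma adjusted p = 0.154) did not. Phlda3 was no longer called without arrays 109 to 120 (limma adjusted p = 0.0615) and, like Sesn2 (limma adjusted p = 0.130), without the 4 tumors highest in Eda2r (limma adjusted p = 0.0903). The correlation of Cdkn2a with Eda2r was r = 0.619 (rho = 0.406, permutation p = 1e-05 for both), 0.534 without the 2 tumors farthest in Eda2r, 0.811 within tumors 107 to 134 and 0.546 within tumors 1 to 106. It was 0.583 without arrays 109 to 120 and 0.476 without the 4 tumors highest in Eda2r. With Zmat3 it was r = 0.530 (rho = 0.485, permutation p = 1e-05 for both), 0.505 without the 2 tumors farthest in Zmat3, with 0.606 within tumors 107 to 134 and 0.512 within tumors 1 to 106. Without those arrays r with Zmat3 was 0.536, and without those 4 tumors 0.428. The correlation of Cdkn2a with Phlda3 was 0.783 within tumors 107 to 134 and 0.202 within tumors 1 to 106.

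**Figure D3:**
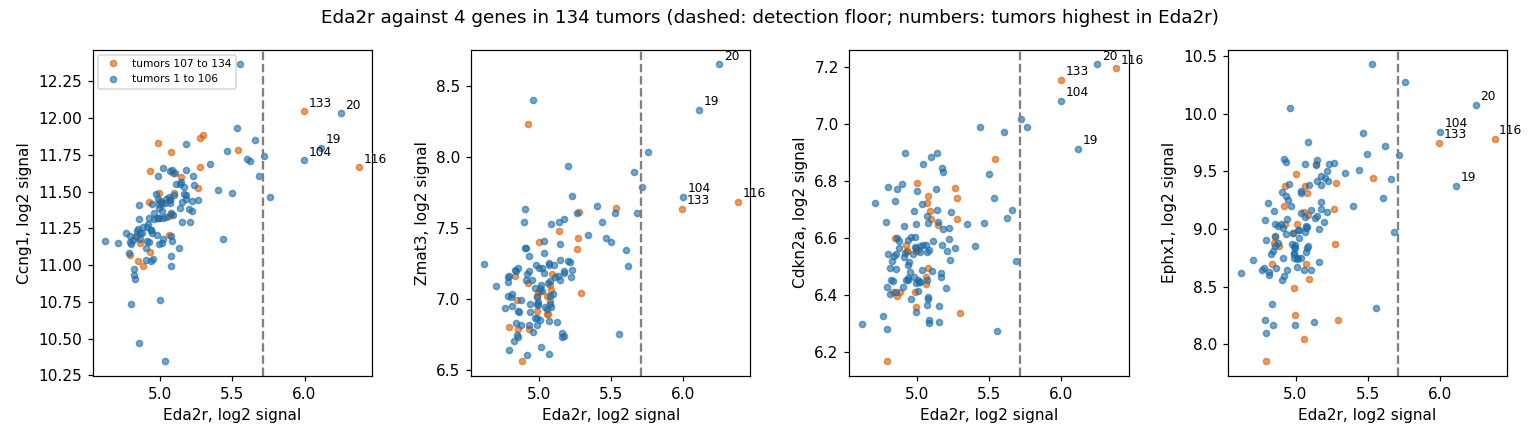
Log2 signal of Eda2r (x axis, detection floor of 5.71 dashed) against Ccng1, Zmat3, Cdkn2a and Ephx1 in 134 tumors, with tumors 107 to 134 and tumors 1 to 106 in different colors. The 5 numbered tumors, highest in Eda2r, all lie above the median of the other gene in each plot, and most other tumors lie under the floor in Eda2r.

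Mdm4, a relative of Mdm2 that inhibits p53 without degrading it, showed a different pattern. Mdm2 was higher by 0.07 ± 0.02 (log2, SE) per SD of Mdm4 with a limma adjusted p of 0.00138, and Sesn2 was lower, at -0.07 ± 0.02 with a limma adjusted p of 0.00748. These were 1 positive and 1 negative call among 8 targets, against 10.3% positive and 10.6% negative among all genes. Trp53 itself has no probe set with a single symbol in the table used here, so its level is not given.

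Other known p53 targets were examined as a list of 30 genes, of which 29 were measured (Gdf15 was not). The list was chosen with earlier results of these data known. With Eda2r as covariate 6 of 29 passed upward and 0 downward, against 0.747% upward and 0.366% downward among all genes. These were Aen, an apoptosis-linked nuclease, the translesion polymerase Polk, the epoxide hydrolase Ephx1, the microtubule-binding protein Psrc1, the reductase Dcxr and the death receptor Tnfrsf10b. The median coefficient of the list was 0.037 on the log2 scale, against -0.0021 over all genes. With Zmat3, 8 of 29 passed upward and 0 downward, against 0.863% and 0.396%. They were the 6 genes named for Eda2r together with the antiproliferative gene Btg2 and the repair nuclease Ercc5. With Cdkn2a, 8 passed upward and 0 downward, against 1.35% and 0.717%. They were Aen, Ephx1, Polk, Psrc1, Perp, Plk2, Pmaip1 and Rprm, of which Perp and Pmaip1 (Noxa) act in apoptosis. Ephx1 had the largest response to Zmat3, higher by 0.28 ± 0.03 (log2, SE) per SD with a limma adjusted p of 1.53e-11, and Psrc1 was higher by 0.27 ± 0.04 per SD of Eda2r with a limma adjusted p of 2.83e-07.

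The remaining targets were read against larger backgrounds among all genes. With Sesn2 as covariate 16 of 29 passed upward and 1 downward, with Ccng1 10 upward and 4 downward, with Phlda3 8 upward and 0 downward, with Trp53inp1 7 and 4, with Bbc3 6 and 2, and with Mdm2 6 and 3. Their backgrounds among all genes upward are those given above, and downward 19.1% for Sesn2, 9.63% for Ccng1, 11.7% for Phlda3, 5.52% for Trp53inp1, 7.60% for Bbc3 and 10.6% for Mdm2. For Mdm2 the median coefficient of the list, 0.0047, did not stand apart from that of all genes, 0.0041. The mean z-score of the list as covariate gave 7 of 8 targets a positive call, all but Mdm2, against 17.1% of all genes (37.2% in either direction). Other lists moved with this score too: 12 of 12 skeletal muscle genes were called lower (median coefficient -0.44 on the log2 scale), and 10 of 12 hypoxia genes (median 0.15) and 9 of 15 immediate early genes (median 0.06) higher. The 7 calls also passed with the scores of 6 other cell types, muscle among them, as covariates, and the part of hypoxia in them was not tested. Sesn2 had the lowest limma adjusted p among them, 7.63e-15, with 0.17 ± 0.02 (log2, SE) per SD of the score.

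Targets were then set against 14 further list scores for growth, stress responses and cell types, which with the p53 list gave 120 combinations of target and list, of which 29 passed. Eda2r and Zmat3 passed with the other p53 targets and with no other of the 15 lists. The share of all genes that passed in either direction was broad for most of the other lists: 45.9% for cell cycle, 33.8% for the immediate early response, 32.8% for the integrated stress response, 52.8% for Nrf2 targets, 35.8% for luminal epithelium, 16.1% for milk, 23.5% for fibroblasts, 33.9% for adipocytes, 21.5% for skeletal muscle, 35.8% for endothelium and 38.7% for macrophages. A single call with one of these lists is thus near what any gene shows. No target was called with the hypoxia, interferon or T cell scores, where 15.1%, 2.78% and 2.61% of all genes were. The plot of all coefficients shows the p53 list and Cdkn2a as the only rows that are called in most columns.

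Phlda3 was tied to stromal content in the positive direction. Trp53inp1 ran the other way for some of these cell types. With its level as covariate, 9 of 9 adipocyte, 12 of 12 skeletal muscle and 6 of 10 endothelium genes were called lower, against 5.52% of all genes. Of the fibroblast genes 0 of 10 were called in either direction, and of the macrophage genes 0 of 10. Tumors 61 and 73 were low in Trp53inp1 (8.93 and 9.02), and these counts are not given without them. Phlda3 was higher by 0.28 ± 0.03 (log2, SE) per SD of the endothelium score with a limma adjusted p of 2.46e-17, and by 0.20 ± 0.03 per SD of the adipocyte score with a limma adjusted p of 3.92e-08. Phlda3 was also called with the fibroblast score, at 0.15 ± 0.03. Without tumor 73 the endothelium coefficient was 0.22 with a limma adjusted p of 2.83e-11, and the limma adjusted p was 0.0981 within tumors 107 to 134 and 1.73e-15 within tumors 1 to 106. The 2 tumors highest in Phlda3, tumors 73 and 61, had endothelium scores of 5.33 and 3.78 and adipocyte scores of 4.84 and 3.91 (mean z-score), and how far these cells account for their Phlda3 level was not tested. Of 25 cell cycle genes, 23 were lower with a higher level of Phlda3 and 0 higher, against 11.7% lower among all genes. That relation rested on 1 tumor: with the cell cycle score the Phlda3 coefficient was -0.15 ± 0.03 with a limma adjusted p of 0.000147, and -0.05 with a limma adjusted p of 0.230 without tumor 73. The negative call of Phlda3 with luminal epithelium was also lost without it (limma adjusted p = 0.0747), as were the calls of Ccng1 with luminal epithelium (0.179), endothelium (0.709) and Nrf2 targets (0.0857) and of Sesn2 with skeletal muscle (0.0582).

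The other calls with these lists lie within broad backgrounds and are given as values. Sesn2 was higher with the immediate early response score (0.10 ± 0.02 log2 per SD, limma adjusted p = 0.000212), with Nrf2 targets (0.09 ± 0.02, limma adjusted p = 0.000202) and with the integrated stress response (0.08 ± 0.02, limma adjusted p = 0.000777), and these held without tumor 73. Trp53inp1 was lower with milk genes (-0.13 ± 0.03, limma adjusted p = 0.000400), adipocytes, skeletal muscle and endothelium. Mdm2 was lower with the immediate early response (limma adjusted p = 0.0141) and luminal epithelium (limma adjusted p = 0.0140), and Bbc3 higher with the immediate early response (limma adjusted p = 0.0126). With Eda2r, Zmat3 and Cdkn2a as covariates, 0 of 25 cell cycle genes passed in either direction, and 3 of them with Eda2r, 6 with Zmat3 and 0 with Cdkn2a had an unadjusted limma p under 0.05. By the same measure, 12 of 12 skeletal muscle genes had an unadjusted p under 0.05 with Zmat3 and 12 of 12 with Cdkn2a (median coefficients -0.28 and -0.26), and 6 and 8 of 9 adipocyte genes (-0.19 and -0.20), although 0 of these passed after adjustment. With Eda2r this held for 0 of 12 muscle and 0 of 9 adipocyte genes. The share of all genes with an unadjusted p under 0.05 in these fits is not given here, so these counts have no background. With the scores of muscle, adipocytes and 4 other cell types as covariates, the targets called were 6 of 7 for Zmat3 and 7 of 8 for Cdkn2a. Over all genes, 332 and 1153 were called there in either direction, against 251 and 412 without these covariates.

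**Figure D4:**
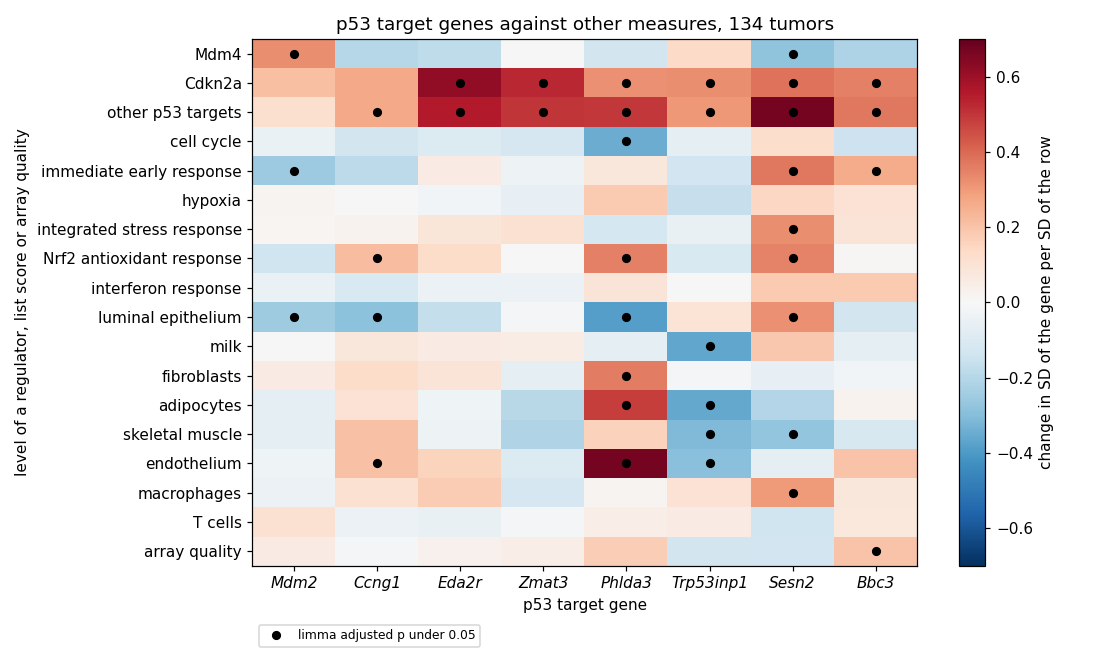
Change of each p53 target gene, in its own SD, per SD of a regulator level, a list score or array quality (color), with dots where the limma adjusted p is under 0.05. Eda2r and Zmat3 are called with Cdkn2a and with the other p53 targets only, and Phlda3 is strongest with endothelium.

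No tumor was low in most of the targets when all 134 were ranked. Taking the 14 lowest of 134 tumors for each gene, 0 tumors were among them for 5 or more of the 8 genes, 4 tumors (126, 102, 50 and 101) for 4, and 69 tumors for none. Because Eda2r lay under the floor in 127 tumors, its low ranks fall within background, and without it no tumor was among the 14 lowest for more than 3 of the other 7 genes. The finding depends on the tumors used: tumor 126 was low in 5 of 8 genes without arrays 109 to 120 (13 lowest taken) and in tumors 107 to 134 alone (3 lowest taken), with Eda2r counted. Tumor 126 had the lowest mean z-score over the 8 genes, -1.04, and the lowest level of all tumors in Phlda3, in Cdkn2a (6.17) and in Ephx1 (7.85). Its Sesn2 level, 6.97, was above the median. In 5 tumors all 8 genes were below their means. At the other end, 9 tumors were among the 14 highest for 5 or more genes, namely tumors 20 and 51 for 6 genes and tumors 19, 26, 31, 96, 104, 116 and 133 for 5. This count was 7 without arrays 109 to 120 and 6 after the arrays were quantile normalized once more. All 9 tumors were among the 14 highest in Eda2r, so those named for 5 genes reach that number only with this dim gene counted. Tumor 20 had the highest mean z-score, 2.06, with Mdm2 at 9.09, Ccng1 at 12.03, Eda2r at 6.25 and Zmat3 at 8.65. Tumors 116, 19 and 104 followed at 1.89, 1.70 and 1.69, and in 7 tumors all 8 genes were above their means. The distribution of the mean z-score was skewed to the high side (skewness 1.15). These tumors were picked by these levels and are described only.

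**Figure D5:**
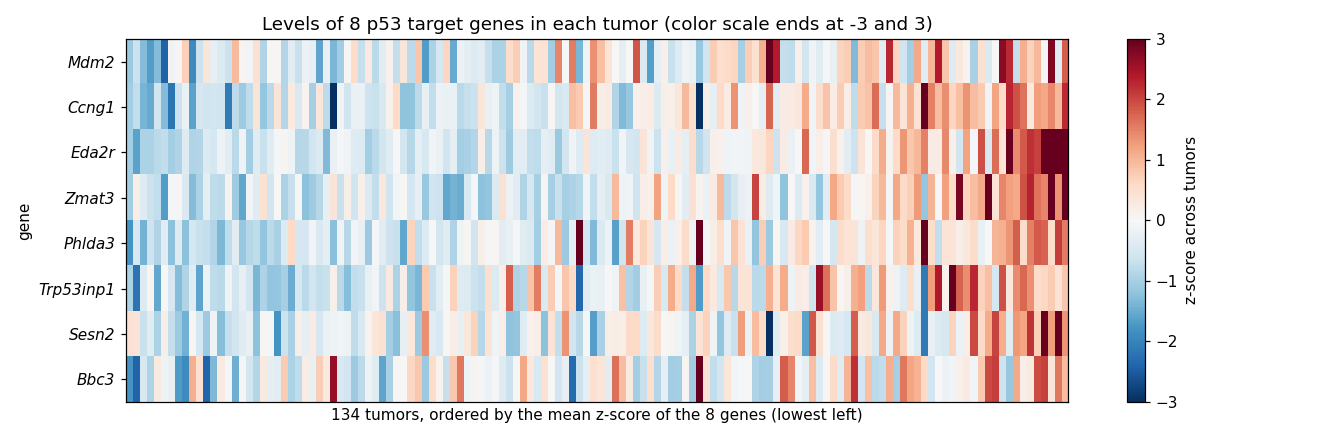
Z-score of each p53 target gene (rows) in each of 134 tumors, ordered by their mean from lowest at the left to highest at the right. The right end, up to a mean of 2.06, is high in Eda2r, Zmat3 and Ccng1 together, whereas no tumor at the left end, down to -1.04, is among the 14 lowest for 5 or more genes.

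The genes most similar to each target, by Pearson r over 134 tumors, included other p53 targets mainly for Eda2r and Zmat3. For Eda2r they were Ccng1, Cdkn2a and Zmat3, and for Zmat3 they were Ephx1 (r = 0.620), Eda2r and Fbxw9 (r = 0.539). Ccng1 was closest to Sar1b, a vesicle transport GTPase (r = 0.676), then Eda2r and Hibadh, an enzyme of valine breakdown (r = 0.597). For the other targets the closest gene was not a p53 target of either list. Among the 20 genes most similar to Eda2r, 3 were of the 8 targets and 3 of the other p53 list, and for Zmat3 1 and 5. For Phlda3 and for Bbc3, 0 of 20 were of either list. The lists hold 8 and 29 of 19938 genes, so 0 of 20 is near the share over all genes. Mdm2 was closest to Sike1 (r = 0.607), Lzic (0.602) and Uprt (0.578), Trp53inp1 to Rab27a (0.636), Peli1 (0.629) and Stim2 (0.604), Phlda3 to Chst15 (0.722), Fez2 (0.662) and Agtr1a (0.660), Sesn2 to Desi1 (0.638), Psmd4 (0.632) and Ap2s1 (0.627), and Bbc3 to Rbmxl2 (0.615), Kcnk12 (0.601) and Hmx1 (0.598). The lowest correlations were with Gpx4 for Mdm2 (r = -0.676), Clk3 for Ccng1 (-0.621), Esrp1 for Phlda3 (-0.618), Lpp for Bbc3 (-0.575), Tmem109 for Trp53inp1 (-0.559), Mir330 for Sesn2 (-0.532), Chn1 for Zmat3 (-0.475) and Skida1 for Eda2r (-0.468). At most 2 of the 20 genes most similar to a target lay on its own chromosome (Tmtc3 and Serinc1 for Mdm2, Sar1b and Ppp3r1 for Ccng1, Rbmxl2 and Cfap46 for Bbc3, Psrc1 and 4930429B21Rik for Zmat3). The chromosomes of Mdm2, Ccng1, Bbc3 and Zmat3 hold 4.70%, 7.84%, 8.70% and 4.73% of all genes. Counts of 2 in 20 are too small to set against these shares, and linkage was not tested. The mean z-score of the 8 targets was followed most closely by Ephx1 (r = 0.714) and Cdkn2a (r = 0.634), then by 1700007K13Rik, Slc19a2, Rev1, Lrrc28, Aen, Mgmt, Pqlc3 and Dyrk3 with r from 0.576 to 0.534. By rank, rho was 0.721 for Ephx1, 0.468 for Cdkn2a, 0.360 for Mgmt and 0.280 for 1700007K13Rik, and from 0.446 to 0.539 for the others. Rev1 is a translesion DNA polymerase and Mgmt removes alkyl groups from guanine. A shared function of these genes was not tested.

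No target was called between the label series. In limma 0 of 8 passed between tumors 107 to 134 and tumors 1 to 106, against 14.4% of all genes. Ccng1 alone had an unadjusted limma p under 0.05 (0.0429), with a mean of 11.48 ± 0.28 in tumors 107 to 134 (SD, n = 28) and 11.35 ± 0.29 in tumors 1 to 106 (SD, n = 106), a difference of 0.12 and a limma adjusted p of 0.152. Without arrays 109 to 120, Sesn2 was called lower in tumors 107 to 134, at -0.21 with a limma adjusted p of 0.00840. Array quality, taken as an array's median absolute deviation from the median array over all genes, was associated with Bbc3 only (limma adjusted p = 0.0452), against 50.2% of all genes.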

How the data were processed

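Total RNA of 134 tumors was hybridized by the study to Affymetrix Mouse Gene 1.0 ST arrays, and the authors deposited log2 values that RMA (background correction, quantile normalization and probe set summary) had made; its version is not given in the sources used here. Values were used as deposited. Of 35556 probe sets, 21789 carried 1 gene symbol in the probe table, 1621 several and 12146 none. Only the first were used, giving 19938 genes, with the probe set of highest mean for each of 999 genes that had several. Each target has 1 probe set. The targets and gene lists were chosen with earlier results of these data known.

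Plans for 10 targets and the level of Trp53 were carried out for the 8 that could be measured, without Trp53. Each gene level, list score (mean z-score of its genes, targets left out) or array measure was fitted as a covariate in limma 3.58.1 (R 4.3.3), with Benjamini-Hochberg adjustment over all genes of the fit and a threshold of 0.05. The fit was tested on simulated data. The 28 pairs of targets and the 8 with Cdkn2a were tested with 100000 permutations of tumors (Python 3.11.15, scipy 1.17.1), and their adjusted values are those of the limma fits. Genes named besides the targets came from the lists, the 3 most and 1 least similar genes of each target, the 10 most similar to their mean z-score, and genes of the same chromosome among the 20 most similar. The p53 half-site was searched after seeing the data, as was the setting without the 4 tumors highest in Eda2r. Tumors come from separate mice, and precision is limited by the number of arrays. Genotypes, subtypes and metastasis were not analysed here.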

Additional observations from a re-analysis of the deposited data

How the results depend on the processing

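The processing was varied by averaging probe sets, using ranks, repeating quantile normalization, omitting dim genes, adding label series, array quality or other cell types as covariates, and by using each label series alone or leaving out tumor 73, arrays 109 to 120, the 2 farthest tumors or (chosen after seeing the data) the 4 tumors highest in Eda2r. The 36 positive links among targets ranged from 25 to 37 under all of these except in tumors 107 to 134 alone, where 5 were called. Over all genes, the same fits made 11706 calls in those 28 tumors and 27166 in all tumors, in either direction. In the same 28 tumors, 2 calls with regulator levels (8 in all tumors), 9 with list scores (29 in all tumors), and 1 tumor each high and low in most targets (9 and 0 in all tumors) were found; fewer samples were fitted there. With other cell types as covariates, 17 calls with list scores were made, with the 6 scores used as covariates not tested. The mean r of 0.257 was 0.200 with dim genes left out, which drops Eda2r, and 0.198 without the 4 tumors highest in Eda2r. Without arrays 109 to 120, 1 target (Sesn2) was called by label series and 1 tumor (126) was low in most targets; the cause was not tested. With Eda2r, or Eda2r and Bbc3, left out of the count (chosen after seeing the data), 0 tumors were low in most targets. The count of tumors high in most targets was not repeated in this way. The single call with array quality was 2 in tumors 1 to 106 alone and 0 with ranks, dim genes left out, other cell types as covariates, tumors 107 to 134 alone, and without tumor 73 or arrays 109 to 120. Of the remaining counts of calls per gene, 22 moved by more than 1.5 times and 108 did not, and counts cannot change sign. Among single pairs of targets, 3 had opposite signs in the 2 label series (Mdm2 with Sesn2, Ccng1 with Sesn2, Trp53inp1 with Phlda3), and 1 (Trp53inp1 with Phlda3) turned without tumor 73. No paired analysis was possible because there is 1 group. Signal over background limits Eda2r and Bbc3 most.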
